A study of Mus musculus with 44 samples.

Results

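The genes described here are 10 markers of fibroblasts and myofibroblasts: Acta2, Tagln, Dcn, Lum, Pdgfra, Pdgfrb, Postn, Thbs2, Lrrc15 and Fap. They were chosen by gene name, and all 10 were found in both tables of the series, among 24150 genes in the subcutaneous table and 26940 in the intratracheal one. RNA came from 44 lung samples of C57BL6j mice, each a small piece of tissue. In the subcutaneous model, 1000000 LL/2-Luc2 cells, luciferase-carrying Lewis lung carcinoma cells, were placed under the flank skin of wild-type mice, and the lungs, described as early metastatic, were sampled. Of these mice 5 had been given HBSS alone as vehicle, 5 recombinant human TIMP2 (rTIMP2) starting on day 0, and 4 rTIMP2 starting on day 7. In the intratracheal model, wild-type (WT) mice and Timp2-mutant (MT2) mice received 1000000 cells of the same line through the airway, with HBSS or with rTIMP2, or stayed tumour-free, with n = 5 in each of the 6 groups. Animals on rTIMP2 were injected intraperitoneally each day with 200 µg per kg of body weight. The nature of the Timp2 mutation is not given in the sources used here, and the labels do not state the sex or age of the mice. Lungs given cells through the airway hold RNA of the host and of the injected cells, and the values do not separate them.

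Fibroblasts of the lung build the scaffold of alveoli, vessels and airways, and they keep a resting state marked by matrix proteoglycans and by PDGF receptor alpha. Smooth muscle cells and pericytes share part of this programme, with PDGF receptor beta on pericytes and the contractile proteins of Acta2 and Tagln in smooth muscle. When fibroblasts are activated by injury, transforming growth factor beta or a tumour, they can take up Acta2 and Tagln as myofibroblasts, secrete matricellular proteins such as periostin and thrombospondin 2, and display the surface proteins FAP and LRRC15. Tumour cells of mesenchymal character can transcribe several of the same genes.

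The values are normalized counts per gene and library. The estimated depth was 14900000 to 19400000 reads in the subcutaneous libraries and 10700000 to 17100000 in the intratracheal ones, so a value near 1 stands for about 1 read. In tumour-free lungs the reporter was at 0 in all 10 libraries. In lungs given cells and HBSS, all 8 listed markers of the tumour cells and of proliferation were higher than in tumour-free lungs in either genotype, and all 8 endothelial, all 8 epithelial and 7 of 8 cardiac muscle markers were lower. Of 8 mesothelial markers 6 were lower in either genotype, and of 8 leukocyte markers 2 were higher and 5 lower in WT and 2 higher and 4 lower in MT2 lungs. The tumour-free mice also differed from the others in a sex-linked transcript: the Y-linked Ddx3y was at most 5.78 in tumour-free lungs and 122.6 or more in lungs given cells with HBSS, so tumour and the sex or cohort of the mice cannot be told apart. The X-linked Xist did not divide tumour-free lungs from those with HBSS tumour. In WT lungs it was 4118 to 5057 without tumour and 2399 to 6691 with HBSS tumour. Treated lungs with the lowest reporter differed from tumour-free lungs in both transcripts. In WT rTIMP2 replicates 2, 3 and 5, whose reporter was at 0, Ddx3y was 1024 to 1321 and Xist 42.2 to 92.4. In MT2 rTIMP2 replicate 2, with a reporter of 0.983, Ddx3y was 1265 and Xist 119. All 10 tumour-free lungs had Xist of at least 4118. The source of Xist in lungs with HBSS tumour was not tested. No gene of the epithelial or endothelial lists was at 0 throughout any group. Separate animals are not stated for each sample, so p-values measure the spread between samples. In bulk tissue, fewer cells of a type and less RNA per cell cannot be told apart.

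In tumour-free WT lungs the contractile genes were the most abundant members per length of transcript. Mean levels per kilobase of exon were 1397 for Tagln and 1375 for Acta2, whose ranges over 5 libraries overlapped. Pdgfrb (491), Postn (462) and Pdgfra (431) followed, again with overlapping ranges, and then Dcn at 313, below the lowest library of Pdgfra (359). Lum stood at 66.5, Thbs2 at 9.73, Fap at 2.68 and Lrrc15 at 0.773, and among these 4 only the ranges of Fap and Lrrc15 overlapped. The order was different in WT lungs with tumour and HBSS. Lum was the most abundant member per kilobase there (2299.7), then Dcn (1587) and Thbs2 (561), while Acta2 and Tagln stood at 448 and 445, Pdgfra at 174, Lrrc15 at 156, Pdgfrb at 91.3, Postn at 73.3 and Fap at 13.9. The ranges of Lum and Dcn overlapped, and so did those of Thbs2, Acta2 and Tagln. These sets also overlapped each other. The lowest libraries of Lum (799) and Dcn (750) lay below the highest of Thbs2 (822), Acta2 (849) and Tagln (986).

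Intratracheal tumour split the 10 genes evenly. Against tumour-free lungs of the same genotype, 5 members were higher and 5 lower in WT lungs with HBSS, and the same 5 and 5 in MT2 lungs, with every member past the threshold (limma on log2 of the value plus 1, with p-values adjusted by Benjamini and Hochberg across every gene tested and called under 0.05). The genes that rose were Dcn, Lum, Thbs2, Lrrc15 and Fap. The genes that fell were Acta2, Tagln, Pdgfra, Pdgfrb and Postn. This comparison called 70.5% of all genes tested in WT lungs (32.8% higher, 37.7% lower) and 67.4% in MT2 lungs (31.5% higher, 35.9% lower), so that a called gene was the usual case. For each member the 5 tumour and 5 tumour-free libraries did not overlap in either genotype. Among all genes tested this held for 26% upward and 31.1% downward in WT lungs, and for 26.6% and 31.4% in MT2 lungs.

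**Figure D1:**
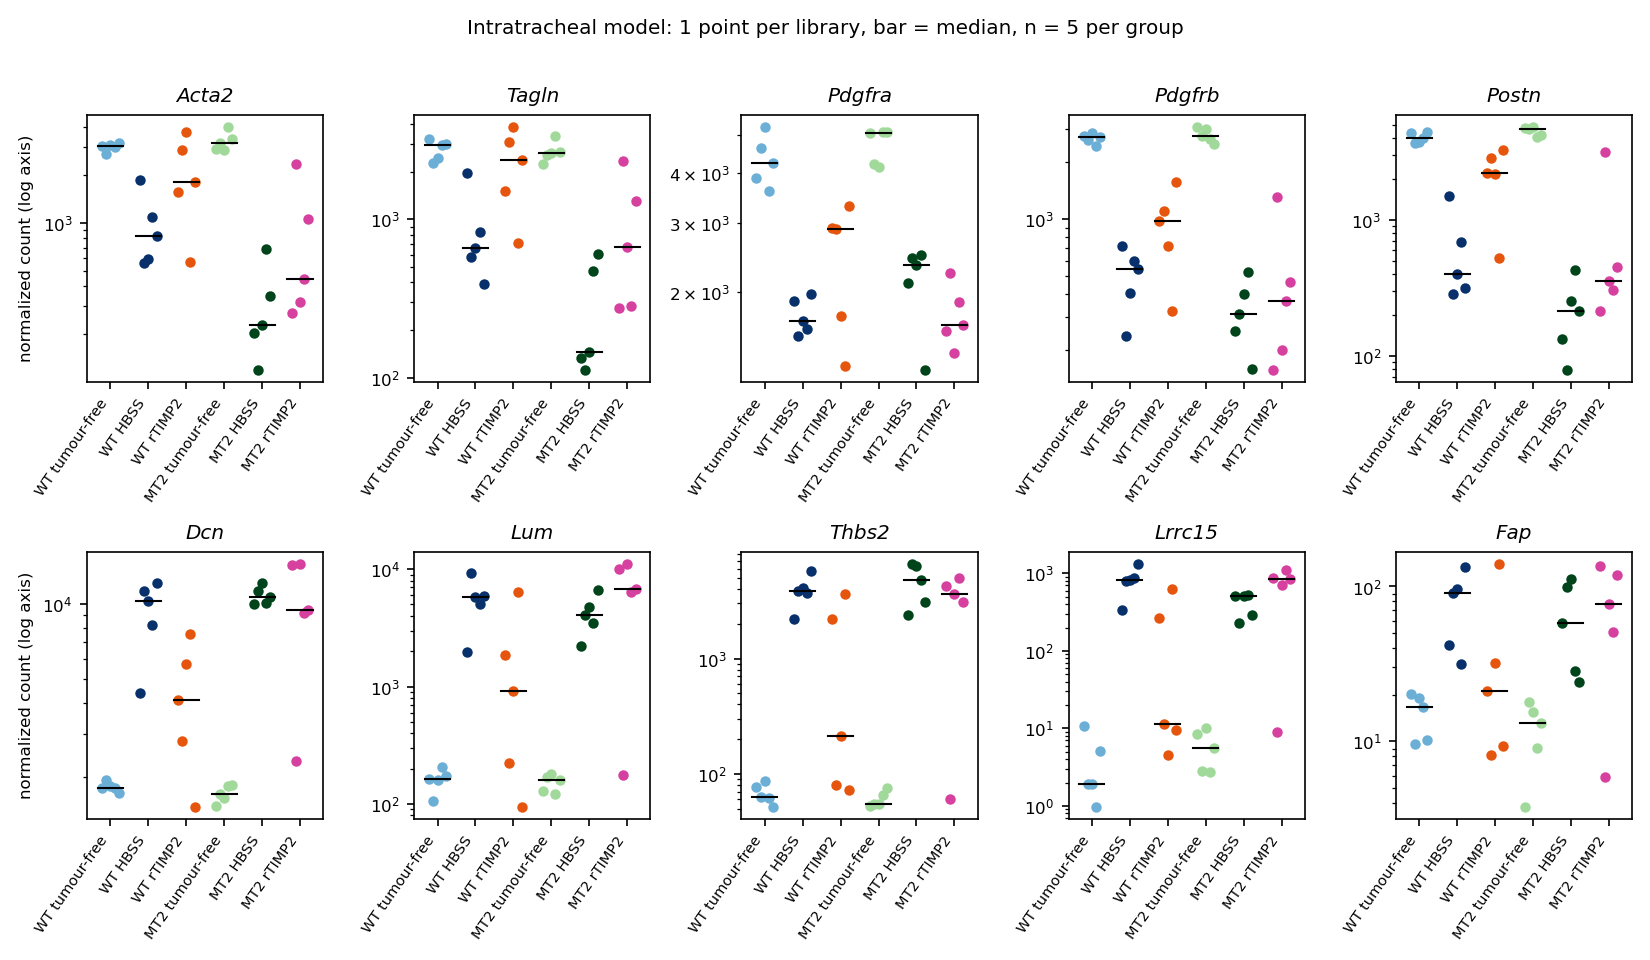
Normalized counts of the 10 genes (log axis) in the 6 groups of the intratracheal model; each point is 1 library and the bar is the median of 5. The upper row holds the 5 genes that fell in HBSS tumour lungs and the lower row the 5 that rose. In Acta2, Tagln, Thbs2 and Lrrc15, some rTIMP2-treated WT libraries lie in the tumour-free WT range and others in the WT HBSS range. In Dcn, Lum and Fap, treated WT libraries lie above and below the tumour-free WT range, and none lies within it. In Pdgfra, Pdgfrb and Postn no treated WT library reaches the tumour-free range. Some treated values of Acta2, Tagln, Pdgfra, Dcn, Lum and Fap also lie beyond the ranges of both groups. MT2 rTIMP2 replicate 2 is the highest of its group in the upper row and the lowest in the lower row.

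Acta2 encodes smooth muscle alpha-actin, and Tagln encodes transgelin, an actin-binding protein of the same cells. Acta2 read 3064, 2698, 3105, 3023 and 3201 in tumour-free WT lungs and 1865, 559, 591, 1085 and 823 in WT lungs with tumour and HBSS. Replicate 1 of the tumour group was the highest and still below every tumour-free lung. The log2 fold change was -1.76 ± 0.28 (SE, adjusted p = 0.00026). In MT2 lungs Acta2 went from 2909.8, 3208, 2872, 4021 and 3396 without tumour to 204, 119, 227, 685 and 346 with tumour, a log2 fold change of -3.61 ± 0.37 (adjusted p = 7.5e-06). Tagln fell from a mean of 2777 ± 390.1 (SD) to 886 ± 622 in WT lungs (log2 -1.87 ± 0.35, adjusted p = 0.00067) and from 2692 ± 406 to 293 ± 227 in MT2 lungs (log2 -3.54 ± 0.44, adjusted p = 2.9e-05). The other contractile genes of smooth muscle moved mostly the same way: of 17 tested in WT lungs, 11 were lower and 2 higher, with a median log2 fold change of -1.98 against -0.07 for all genes. Myh11, smooth muscle myosin, fell from 2423 ± 245 to 388 ± 504 in WT lungs, and Cald1, caldesmon, rose from 3589.5 ± 98.4 to 6113 ± 1037.5.

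Beside these falls stood those of the vessel lining, larger in WT lungs and of like size in MT2 lungs. The endothelial list had a median log2 fold change of -2.94 in WT and -3.66 in MT2 lungs. Acta2 divided by Cdh5, the cadherin of endothelial junctions, was 0.201 to 0.244 in tumour-free WT lungs and 0.430 to 0.664 in WT lungs with tumour and HBSS, so the ratio was higher in every WT tumour library. In MT2 lungs the ratio was 0.189 to 0.280 without tumour and 0.184 to 0.471 with tumour, and the groups overlapped. The part of this loss of vessel and epithelial RNA in the falls of Acta2 and Tagln was not tested.

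Pdgfra and Pdgfrb encode the receptors for platelet-derived growth factors, alpha marking alveolar and adventitial fibroblasts and beta marking pericytes and smooth muscle. Pdgfrb read 2766, 2631, 2855, 2450.0 and 2741 in tumour-free WT lungs and 717, 239, 405, 597 and 543 with tumour (log2 -2.52 ± 0.25, adjusted p = 1.1e-05). Pdgfra went from 4322 ± 643 to 1744 ± 184 in WT lungs (log2 -1.30 ± 0.12, adjusted p = 7.1e-06), the smallest fall among the 5. In MT2 lungs the log2 fold changes were -3.20 ± 0.27 for Pdgfrb (adjusted p = 1.8e-06) and -1.18 ± 0.19 for Pdgfra (adjusted p = 0.00017). As a result the ratio of Pdgfra to Pdgfrb was 1.41 to 1.84 in tumour-free WT and 1.38 to 2.03 in tumour-free MT2 lungs, and 2.65 to 6.47 and 4.74 to 8.35 in the corresponding tumour lungs, with no overlap in either genotype. Of the pericyte list, 11 of 12 genes were lower and 1 higher in each genotype. The gene that rose was Rgs5, a regulator of G protein signalling, from 139.7 ± 20.4 to 325 ± 107 in WT lungs, and the largest fall was that of Gucy1a1, a subunit of the nitric oxide receptor, from 3489 ± 378 to 345 ± 268.

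The ligands of these receptors moved in both directions. Pdgfa, Pdgfb and Pdgfd fell and Pdgfc rose in both genotypes. In WT lungs Pdgfc went from 49.0 ± 7.66 to 559 ± 155 (log2 3.45 ± 0.21, adjusted p = 6.1e-07), and Pdgfb from 3027 ± 375 to 598 ± 241 (log2 -2.42 ± 0.23, adjusted p = 9.7e-06).

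Postn, the gene of periostin, a secreted matricellular protein usually listed among activation markers, went with the contractile genes. It read 4324, 3664, 3711, 3999 and 4407 in tumour-free WT lungs and 1496, 285, 401, 692 and 314 with tumour (log2 -2.95 ± 0.39, adjusted p = 7.4e-05). In MT2 lungs the tumour libraries read 134, 79.6, 254, 426 and 213, against 4069 to 4807 in the tumour-free ones (log2 -4.55 ± 0.36, adjusted p = 1.3e-06). Its level was therefore high in lungs without tumour and low in those with it, where its per-kilobase rank among the 10 went from 4 to 9 in WT lungs.

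Thbs2 went the other way. It encodes thrombospondin 2, a matricellular protein that binds metalloproteinases and restrains vessel growth. The libraries read 77.0, 63.0, 87.1, 61.4 and 51.9 in tumour-free WT lungs and 2218, 3886, 4103, 3691 and 5754 with tumour (log2 5.79 ± 0.23, adjusted p = 8.4e-08). In MT2 lungs they went from between 52.1 and 76.0 to between 2397 and 6596 (log2 6.14 ± 0.27, adjusted p = 4.5e-08).

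Dcn and Lum encode decorin and lumican, small leucine-rich proteoglycans that bind collagen fibrils. They are neighbours on chromosome 10 (mm10), on the same strand, with 46984 bases between them. Dcn read 1807, 1951, 1833, 1811 and 1732 in tumour-free WT lungs and 4380.2, 11240.1, 10278, 8249 and 12170.0 with tumour (log2 2.26 ± 0.24, adjusted p = 1.7e-05). Lum read 165, 106, 159.9, 209 and 175 without tumour and 1957, 9337, 5829.5, 5089 and 5936 with it (log2 4.97 ± 0.35, adjusted p = 1.6e-06). Replicate 1 of the WT tumour group was the lowest of its group in both genes, and it was the highest in Acta2, Tagln, Pdgfrb and Postn. MT2 lungs rose by 2.66 ± 0.11 in Dcn (adjusted p = 4.5e-08) and by 4.71 ± 0.25 in Lum (adjusted p = 1.3e-07) on the log2 scale. Lum divided by Dcn was 0.0542 to 0.115 in tumour-free WT lungs and 0.447 to 0.831 with tumour, and 0.0665 to 0.108 and 0.221 to 0.619 in MT2 lungs. The groups did not overlap in either genotype.

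Other proteoglycans of the class mostly fell. Of 9 tested in WT lungs, 2 rose and 7 fell. Kera, keratocan, rose from 1.38 ± 1.13 to 225 ± 176 and Aspn, asporin, from 221 ± 19.4 to 1325 ± 777, while Prelp, which anchors basement membrane to connective tissue, fell from 7021 ± 942 to 690.1 ± 751. In MT2 lungs 2 of 9 rose and 6 fell.

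Lrrc15 and Fap encode membrane proteins seen on activated fibroblasts of tumours, a leucine-rich repeat protein and a serine protease. Lrrc15 read 10.6, 1.94, 1.92, 0.975 and 5.09 in tumour-free WT lungs, close to the limit of the depth, and 336, 800.2, 813, 871 and 1320.2 with tumour. The log2 fold change of 7.53 ± 0.50 (adjusted p = 9.1e-07) is on the log2(value + 1) scale, which understates the change of a gene this low. MT2 lungs had 2.73 to 9.98 without tumour and 506, 230.1, 507, 531 and 293 with it (log2 5.96 ± 0.38, adjusted p = 3.2e-07). Per kilobase, Lrrc15 was the least abundant member in tumour-free lungs of either genotype, and Fap was in lungs with tumour and HBSS. It read 9.70 to 20.2 in tumour-free WT lungs and 42.2, 90.7, 95.8, 31.4 and 134 with tumour (log2 2.17 ± 0.41, adjusted p = 0.00068), with a like rise in MT2 lungs (log2 2.23 ± 0.51, adjusted p = 0.0023).

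The lists of fibroblast states held genes that moved in both directions. Of 20 genes of resting lung fibroblasts, 17 fell and 2 rose in WT lungs and 16 fell and 1 rose in MT2 lungs. Serpinf1, which encodes pigment epithelium-derived factor, rose from 398 ± 48.0 to 3767 ± 1454 in WT lungs, and Col13a1, a membrane collagen of alveolar fibroblasts, fell from 879.8 ± 49.2 to 68.1 ± 61.5. Of 15 tested genes of activated fibroblasts, 8 rose and 7 fell in WT lungs, and 5 rose and 7 fell in MT2 lungs. Grem1, an antagonist of bone morphogenetic proteins, rose from 10.5 ± 4.47 to 337 ± 128, and Col3a1, a fibrillar collagen chain, from 6892 ± 1671 to 50879 ± 20669. In the same lungs Col12a1 fell from 764 ± 98.5 to 155 ± 102 and Cthrc1, a secreted protein of matrix-producing fibroblasts, from 55.9 ± 11.1 to 12.1 ± 11.5. Of 18 genes of transforming growth factor beta signalling, 3 rose and 11 fell in WT lungs, and 2 rose and 10 fell in MT2 lungs.

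The 2 genotypes were not separated by any member. In tumour-free lungs MT2 against WT called 0 of 9 members tested (0.0238% of all genes), with Postn at 4477 ± 336 against 4021 ± 341 (log2 0.16 ± 0.07, adjusted p = 0.47). Lrrc15, under the filter on low values, averaged 5.94 ± 3.28 and 4.10 ± 3.95 (two-sided exact permutation p = 0.41). In lungs with tumour and HBSS the comparison called 0 of 10 members and 0 of all genes (0% at this threshold, 1208 genes at an unadjusted p under 0.05). The values nevertheless differed in size. Acta2 averaged 316 ± 221 in MT2 and 984 ± 536 in WT lungs (log2 -1.74 ± 0.45, adjusted p = 0.44), with MT2 replicate 4 at 685 inside the WT range. Tagln (log2 -1.72 ± 0.53, adjusted p = 0.50), Postn (log2 -1.44 ± 0.51, adjusted p = 0.53) and Lrrc15 (log2 -0.95 ± 0.35, adjusted p = 0.54) were likewise not past the threshold.

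The difference between genotypes in the response to tumour was tested as an interaction, which called 0 of 10 members (0.0223% of all genes). Acta2 had an interaction of -1.85 ± 0.50 on the log2 scale (adjusted p = 0.21), Tagln of -1.68 ± 0.60 (adjusted p = 0.33), Postn of -1.60 ± 0.56 (adjusted p = 0.32) and Lrrc15 of -1.57 ± 0.65 (adjusted p = 0.42). Without MT2 HBSS replicate 4, whose Acta2 was the highest of its group, that of Acta2 passed (-2.19, adjusted p = 0.026).

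**Figure D2:**
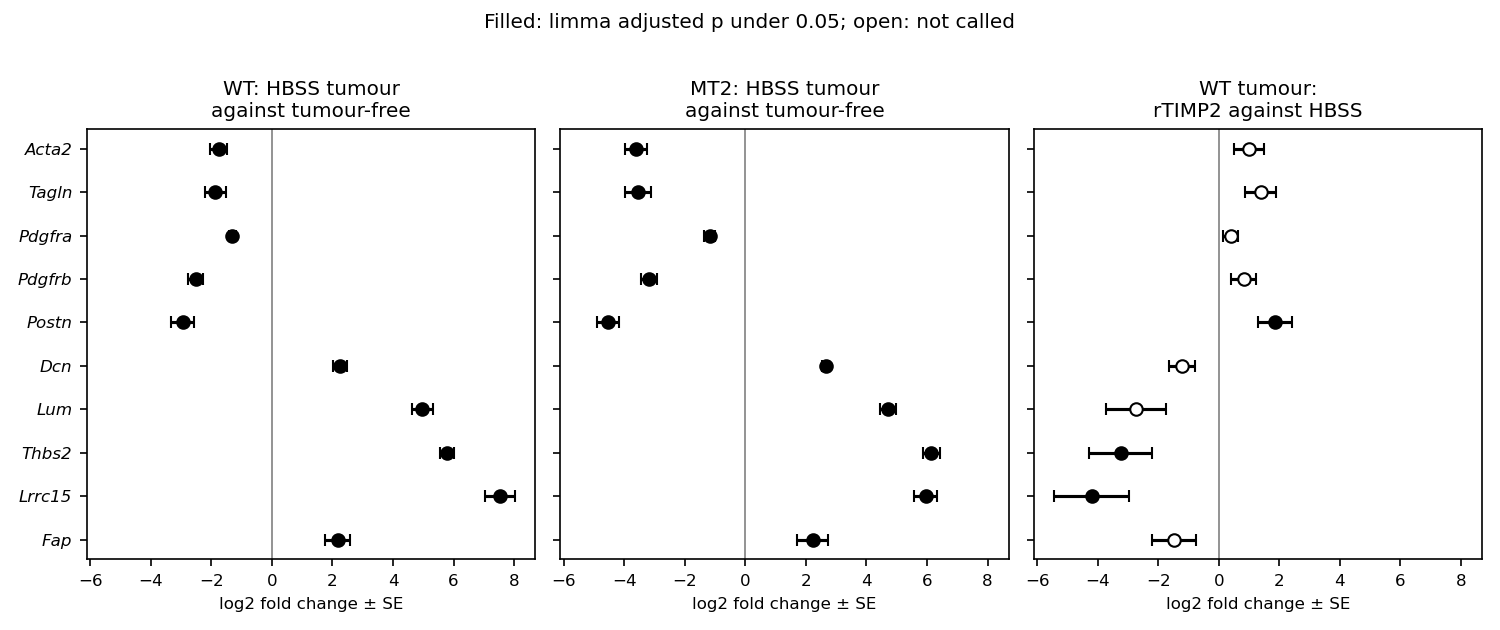
Log2 fold changes of the 10 genes with their standard errors in 3 comparisons of the intratracheal model; filled points have a limma adjusted p under 0.05. All 10 points are filled for tumour against tumour-free in both genotypes, and 3 (Postn, Thbs2 and Lrrc15) are filled for rTIMP2 against HBSS in WT lungs. The HBSS libraries of WT mice enter both WT comparisons.

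In WT lungs given tumour cells, rTIMP2 against HBSS called 3 of 10 members, a share close to the 27.3% of all genes tested. Postn was higher with rTIMP2, and Thbs2 and Lrrc15 were lower. Postn read 2204, 2848, 2168, 528 and 3279 with rTIMP2, against 285 to 1496 with HBSS (log2 1.86 ± 0.57, adjusted p = 0.042). Thbs2 read 2189.5, 79.8, 211, 3593 and 73.1, against 2218 to 5754 (log2 -3.24 ± 1.05, adjusted p = 0.046). Lrrc15 read 265, 11.3, 4.59, 631 and 9.40, against 336 to 1320.2 (log2 -4.20 ± 1.23, adjusted p = 0.040). In each of the 3 genes the groups overlapped through rTIMP2 replicate 4, which lay within the HBSS range.

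The other 7 members did not pass. Acta2 read 1566, 2891, 3722, 570.5 and 1807 with rTIMP2 (log2 1.00 ± 0.50, adjusted p = 0.13), and Tagln had a log2 fold change of 1.39 ± 0.51 (adjusted p = 0.060). Pdgfrb (log2 0.82 ± 0.42, adjusted p = 0.14) and Pdgfra (log2 0.40 ± 0.25, adjusted p = 0.22) were also on the positive side. Dcn read 4082, 2804, 5727, 7562 and 1519 (log2 -1.21 ± 0.43, adjusted p = 0.056). Lum read 1857, 225, 913, 6408 and 95.0 (log2 -2.75 ± 0.99, adjusted p = 0.057), and Fap had a log2 fold change of -1.48 ± 0.73 (adjusted p = 0.13).

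These calls rest on single libraries. Without WT rTIMP2 replicate 4 all 10 members passed. Without any of WT rTIMP2 replicates 1, 2, 3 and 5 or WT HBSS replicates 2, 3, 4 and 5, no member and no gene at all passed, and the count of all genes called ran from 0 to 9584 over the 10 such fits. Without WT HBSS replicate 1, 6 members passed.

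The treated WT lungs were uneven in tumour content. The reporter was at 23.3 and 67.7 in rTIMP2 replicates 1 and 4, where Thbs2, Lrrc15 and Lum were highest, and at 0 in replicates 2, 3 and 5. In replicates 2 and 5 Lum, Thbs2 and Fap lay at 95.0 to 225, 73.1 to 79.8 and 8.18 to 9.40, near the tumour-free lungs. Dcn was 2804 in replicate 2, above every tumour-free WT lung, and 1519 in replicate 5, below all of them, while Pdgfrb (1097 and 1575) and Postn (2848 and 3279) remained below every tumour-free library. Replicate 3 combined high and low values. Its reporter was 0 and its Lrrc15 was 4.59, yet Dcn was 5727, Lum 913, Thbs2 211 and Fap 32.1, each above every tumour-free WT lung. That library also had the highest Acta2 (3722) and Tagln (3839) of all 5, a Pdgfra of 1738, and a summed level of the smooth muscle list of 91495, against 35155 to 38315 in tumour-free WT lungs. Its Krt13, a keratin of stratified epithelium noticed after its values were seen, was 114425, against at most 102 in tumour-free WT lungs; WT rTIMP2 replicate 2 and WT HBSS replicates 1 and 4 also had 9776 or more. What other tissue in those pieces contributed to the members was not tested.

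Set against tumour-free WT lungs, the treated WT lungs gave 0 of 9 members called (0.208% of all genes). These groups also differed in Ddx3y (633 to 1321 against at most 5.78), so sex or cohort cannot be told apart from tumour and treatment. Pdgfrb (log2 -1.70 ± 0.34, adjusted p = 0.095), Pdgfra (log2 -0.90 ± 0.26, adjusted p = 0.17) and Postn (log2 -1.09 ± 0.42, adjusted p = 0.26) were lower in all 5 treated libraries than in any tumour-free one, which held for 6.55% of all genes. Dcn averaged 4339 ± 2382 against 1827 ± 79.3 (log2 1.04 ± 0.36, adjusted p = 0.23). Lrrc15 averaged 184 ± 273 against 4.10 ± 3.95 (exact permutation p = 0.040, 0.12 after adjustment over 6 such tests). Leaving out rTIMP2 replicate 4 called Pdgfrb (adjusted p = 0.0043) and Postn (0.024), and leaving out replicate 5 called Pdgfrb (0.019) and Dcn (0.032).

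Companion lists were also called in part in treated against HBSS WT lungs, beside the 27.3% of all genes called. Of 17 tested contractile genes 2 were higher, 1 was lower and 14 were not called. Of 20 genes of resting fibroblasts 12 were higher and 1 lower, of 12 pericyte genes 4 were higher, of 9 tested proteoglycans 5 were higher, and of 15 genes of activated fibroblasts 4 were higher and 7 lower. Ces1d, a carboxylesterase of lung fibroblasts, went from 1050.0 ± 1148 to 6019 ± 3058, and Col3a1 from 50879 ± 20669 to 12135 ± 11340.2. All 8 endothelial and all 8 epithelial markers were higher beside them, and all 8 of the tumour and proliferation list were lower. These counts carry the same dependence on single libraries.

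In MT2 lungs rTIMP2 against HBSS called 0 of 10 members and 0 of all genes (0%, 1559 genes at an unadjusted p under 0.05). Tagln averaged 978 ± 873 with rTIMP2 and 293 ± 227 with HBSS (log2 1.60 ± 0.67, adjusted p = 0.49), Acta2 889 ± 877 and 316 ± 221 (log2 1.23 ± 0.62, adjusted p = 0.54) and Postn 892 ± 1256 and 221 ± 133 (log2 1.41 ± 0.68, adjusted p = 0.54). Replicate 2 of the treated group stood apart from the other 4. It had a reporter of 0.983, against 37.9 to 75.5 in the others. Its Lum was 178, its Thbs2 60.0, its Lrrc15 8.85, its Fap 5.90, its Acta2 2354 and its Postn 3135, whereas the others had Lum of 6331 to 11051 and Postn of 213 to 452. The test of a different rTIMP2 response in the genotypes called 0 of 10 members and 0% of all genes (1053 at an unadjusted p under 0.05); Lrrc15 had the largest interaction, 4.06 ± 1.78 (adjusted p = 0.67).

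Treated MT2 lungs against tumour-free MT2 lungs called 9 of 9 members tested, beside 59.3% of all genes (26.6% higher, 32.7% lower). Ddx3y was 234 to 1265 against at most 2.72, so here too sex or cohort cannot be told apart from tumour and treatment. Dcn (log2 2.30 ± 0.43, adjusted p = 0.0058), Lum (4.67 ± 0.97, adjusted p = 0.0058), Thbs2 (4.81 ± 1.05, adjusted p = 0.0061) and Fap (2.21 ± 0.76, adjusted p = 0.029) were higher. Acta2 (-2.38 ± 0.52, adjusted p = 0.0061), Tagln (-1.94 ± 0.54, adjusted p = 0.012), Pdgfra (-1.44 ± 0.15, adjusted p = 0.0014), Pdgfrb (-2.92 ± 0.47, adjusted p = 0.0058) and Postn (-3.14 ± 0.60, adjusted p = 0.0058) were lower. Leaving out 1 library ended the call of Fap in 6 of the fits, with adjusted p from 0.052 to 0.072. Lrrc15 averaged 709.9 ± 420.0 against 5.94 ± 3.28 (exact permutation p = 0.016, 0.095 after adjustment over 6 tests).

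**Figure D3:**
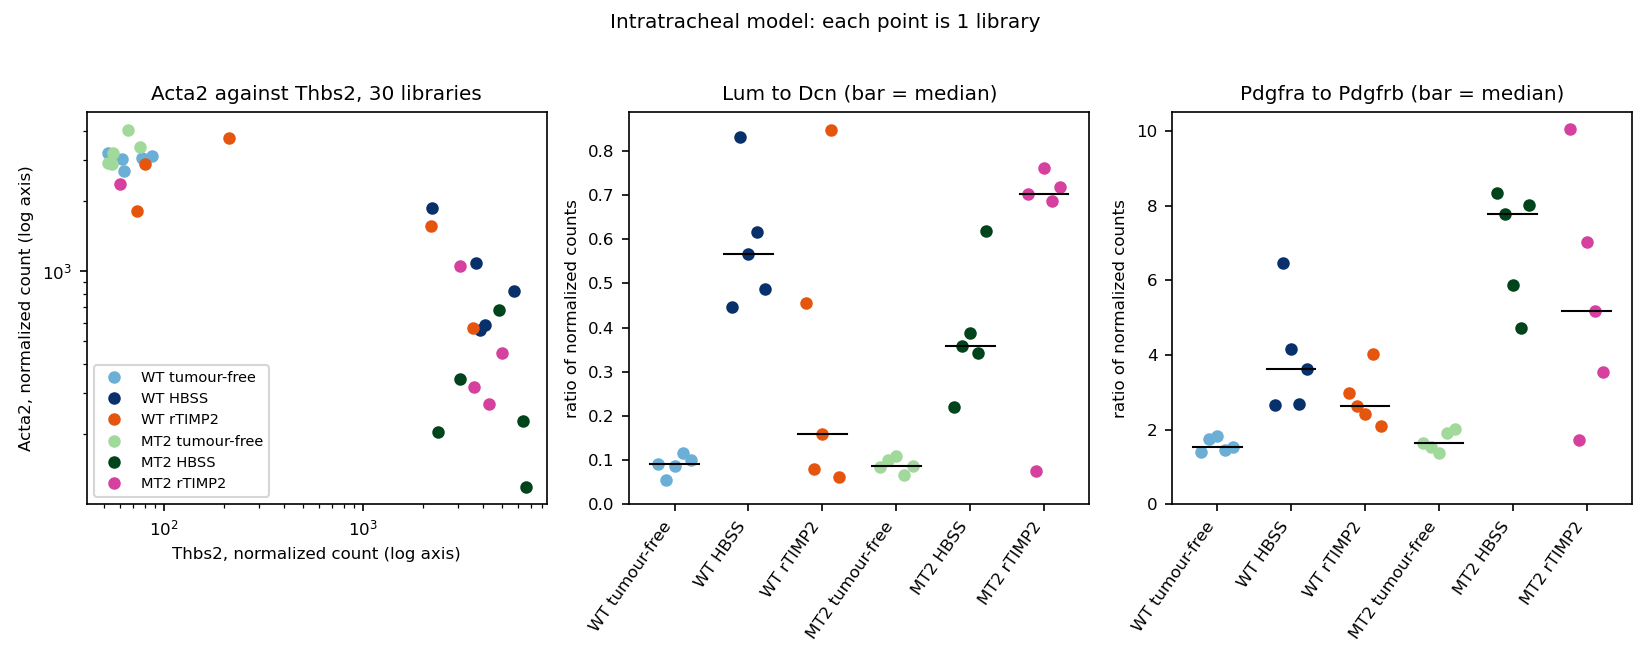
Acta2 against Thbs2 in the 30 intratracheal libraries (both axes log), and the ratios of Lum to Dcn and of Pdgfra to Pdgfrb by group, with 1 point per library and bars at the median. All 10 tumour-free libraries have Thbs2 of at most 87.1 and Acta2 of at least 2698. All 10 HBSS tumour libraries have Thbs2 of at least 2218 and Acta2 of at most 1865. Of the treated libraries, only WT rTIMP2 replicate 2 lies within the tumour-free bounds (Thbs2 79.8, Acta2 2891). WT rTIMP2 replicate 5 (73.1 and 1807) and MT2 rTIMP2 replicate 2 (60.0 and 2354) have as little Thbs2 but less Acta2. WT rTIMP2 replicate 1 lies just outside the tumour bounds (Thbs2 2189.5). WT rTIMP2 replicate 3 lies outside both, with Thbs2 of 211 and Acta2 of 3722. The remaining treated libraries lie within the tumour bounds.

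Across the 30 intratracheal libraries, with the mean of each group taken out, most members that rose varied together, and so did most that fell. Correlations are given as descriptions, since libraries share their tumour content. Pearson's r of log2 values was 0.88 for Acta2 with Tagln, 0.88 for Acta2 with Postn, 0.92 for Lum with Dcn, 0.92 for Lum with Thbs2 and 0.90 for Thbs2 with Lrrc15, and -0.83 for Dcn with Postn. Pdgfra stood apart from the contractile genes, with r of 0.75 with Pdgfrb, 0.45 with Postn, 0.33 with Acta2 and 0.07 with Tagln. Over the 14 subcutaneous libraries Acta2 had r of 0.91 with Tagln, 0.70 with Dcn and -0.08 with Postn. The genes most like Thbs2 were Hmga2, a gene of the tumour and proliferation list that encodes an architectural chromatin protein, Clmp and Dkk2 (r = 0.97 each). Those most like Lum were Oaf (0.98), Rcc1 and Zmynd19 (0.96 each), those most like Acta2 were Myl9, a smooth muscle myosin light chain (0.95), Gpc4 (0.95) and Tbx1 (0.94), and those most like Postn were Als2cl, Col23a1 and Pmp22 (0.97 each). Fap was most like Rnd3 (0.88), Aspn (0.87) and Prrx1 (0.85).

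For members that moved in opposite directions, the stretch before the start of transcription is shown for Acta2, which fell with tumour, and Lrrc15, which had the largest rise in WT lungs. The RefSeq promoter table (GRCm38.p6) matched 5 of the 10 members, with 6 promoters. Each run is 250 bases before the start, 5′ to 3′ on the minus strand, chr19:34255374-34255623 for Acta2 and chr16:30283255-30283504 for Lrrc15. Capitals mark matches on either strand to 3 motifs: the CArG box of serum response factor, TGANTCA of AP-1 factors and GGAATG of TEAD factors.
Acta2: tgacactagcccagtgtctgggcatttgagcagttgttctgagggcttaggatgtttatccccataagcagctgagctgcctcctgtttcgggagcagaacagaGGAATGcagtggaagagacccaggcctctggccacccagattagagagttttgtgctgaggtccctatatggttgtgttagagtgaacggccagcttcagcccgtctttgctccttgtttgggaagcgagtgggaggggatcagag
Lrrc15: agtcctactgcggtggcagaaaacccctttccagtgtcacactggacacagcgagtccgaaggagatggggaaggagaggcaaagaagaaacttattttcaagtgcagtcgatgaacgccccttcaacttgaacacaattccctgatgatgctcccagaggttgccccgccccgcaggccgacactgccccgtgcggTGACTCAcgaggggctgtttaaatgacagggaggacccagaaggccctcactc
Acta2 held GGAATG at 146 to 141 bases before the start, a motif found in 12.6% of 32851 promoters of this length. Lrrc15 held TGACTCA, a match to TGANTCA, at 53 to 47 bases before the start, a motif found in 6.75% of them. The CArG box was searched only in its strict form, CC and GG around 6 bases that are each A or T, which 1.47% of promoters hold and the 6 promoters of the 5 matched members do not. The Acta2 promoter is known for CArG elements that deviate from this form, and such variants were not searched. These are matches of letters and not measured binding.

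In the subcutaneous model no member passed the threshold between treatments. Treatment from day 0 against HBSS called 0 of 9 members tested, where 8.1% of all genes were called, treatment from day 7 called 0 of 9, where 10.4% were called, and day 7 against day 0 called 0 of 9, where 0.235% were called. The contractile genes were close together: Acta2 averaged 2376 ± 450.0 with HBSS, 2056 ± 212 from day 0 and 2246 ± 247 from day 7. Tagln averaged 2834 ± 379, 2428 ± 167 and 2408 ± 246 (log2 -0.21 ± 0.09, adjusted p = 0.15, and -0.23 ± 0.10, adjusted p = 0.16, against HBSS). Srf, the transcription factor that drives both genes in muscle, did fall, from 1427 ± 108 with HBSS to 856 ± 51.9 from day 0 and 879.9 ± 51.3 from day 7 (adjusted p = 5.8e-05 and 0.00032). It was among 3 of 18 contractile genes called from day 0 and 2 from day 7, all of them lower.

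Dcn read 2458, 1955, 2037, 1318 and 1693 with HBSS, 1302, 1344, 1885, 1410.0 and 1330.2 from day 0 and 1669, 1566, 1298 and 1432 from day 7. HBSS replicate 4 lay with the treated libraries, and the groups overlapped (log2 -0.36 ± 0.16, adjusted p = 0.17, and -0.32 ± 0.16, adjusted p = 0.24). Without that library Dcn was called in both comparisons (adjusted p = 0.034 and 0.027) and Tagln in the comparison from day 7 (0.046). Lum averaged 144 ± 41.6 with HBSS, 108 ± 37.2 from day 0 (log2 -0.45 ± 0.27, adjusted p = 0.33) and 105 ± 18.7 from day 7 (log2 -0.43 ± 0.20, adjusted p = 0.18). Markers of the pleural surface moved beside these genes: of 8 mesothelial markers, 2 were lower from day 0 and 5 from day 7, and the summed list ran from 5295 to 9451 with HBSS and from 4901 to 5674 from day 7. Upk3b was 445 in HBSS replicate 4 and 605 in replicate 5, against 1441 to 2116 in the other 3. Of 8 epithelial markers 3 were lower in each comparison, and their summed level was 686340 to 790095 with HBSS, 571538 to 684512 from day 0 and 605045 to 736770 from day 7, so that HBSS and day 0 did not overlap. Of 8 endothelial markers 1 was lower from day 0 and 2 from day 7, of 8 cardiac muscle markers 2 and 1 were, and no leukocyte marker was called. HBSS replicate 1, the highest HBSS library in Dcn, Lum, Acta2 and Thbs2, had a Krt13 of 21178, against at most 236 in the other 13 libraries. The part of these tissues in the values of Dcn, Lum and the contractile genes was not tested.

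Postn was the member nearest to the threshold. It read 2451, 3251, 3429.5, 3068 and 3016 with HBSS and 3554, 3446, 3617 and 3536 from day 7, so that the groups did not overlap (6.49% of all genes upward), and the log2 fold change was 0.23 ± 0.08 (adjusted p = 0.097). Rescaling each library to the same sum brought it past the threshold (adjusted p = 0.049). The tumour-associated members stayed low in these lungs: Thbs2 was 32.4 to 72.9, Fap 2.03 to 22.3 and Lrrc15 0 to 6.64 over the 14 libraries. The reporter, named Luc2 here and Luc in the intratracheal data, was detected in all 14 libraries, at 14.3 to 44.8. Hmga2, another measure of tumour RNA, was 1.01 to 18.0 in the same libraries. Lrrc15 was not tested across genes, and exact permutation tests gave p = 0.79 for day 0 and 0.21 for day 7 against HBSS, and 0.25 between them. The receptors Pdgfra (2777 to 3761) and Pdgfrb (1212 to 2233) overlapped in all 3 groups.

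**Figure D4:**
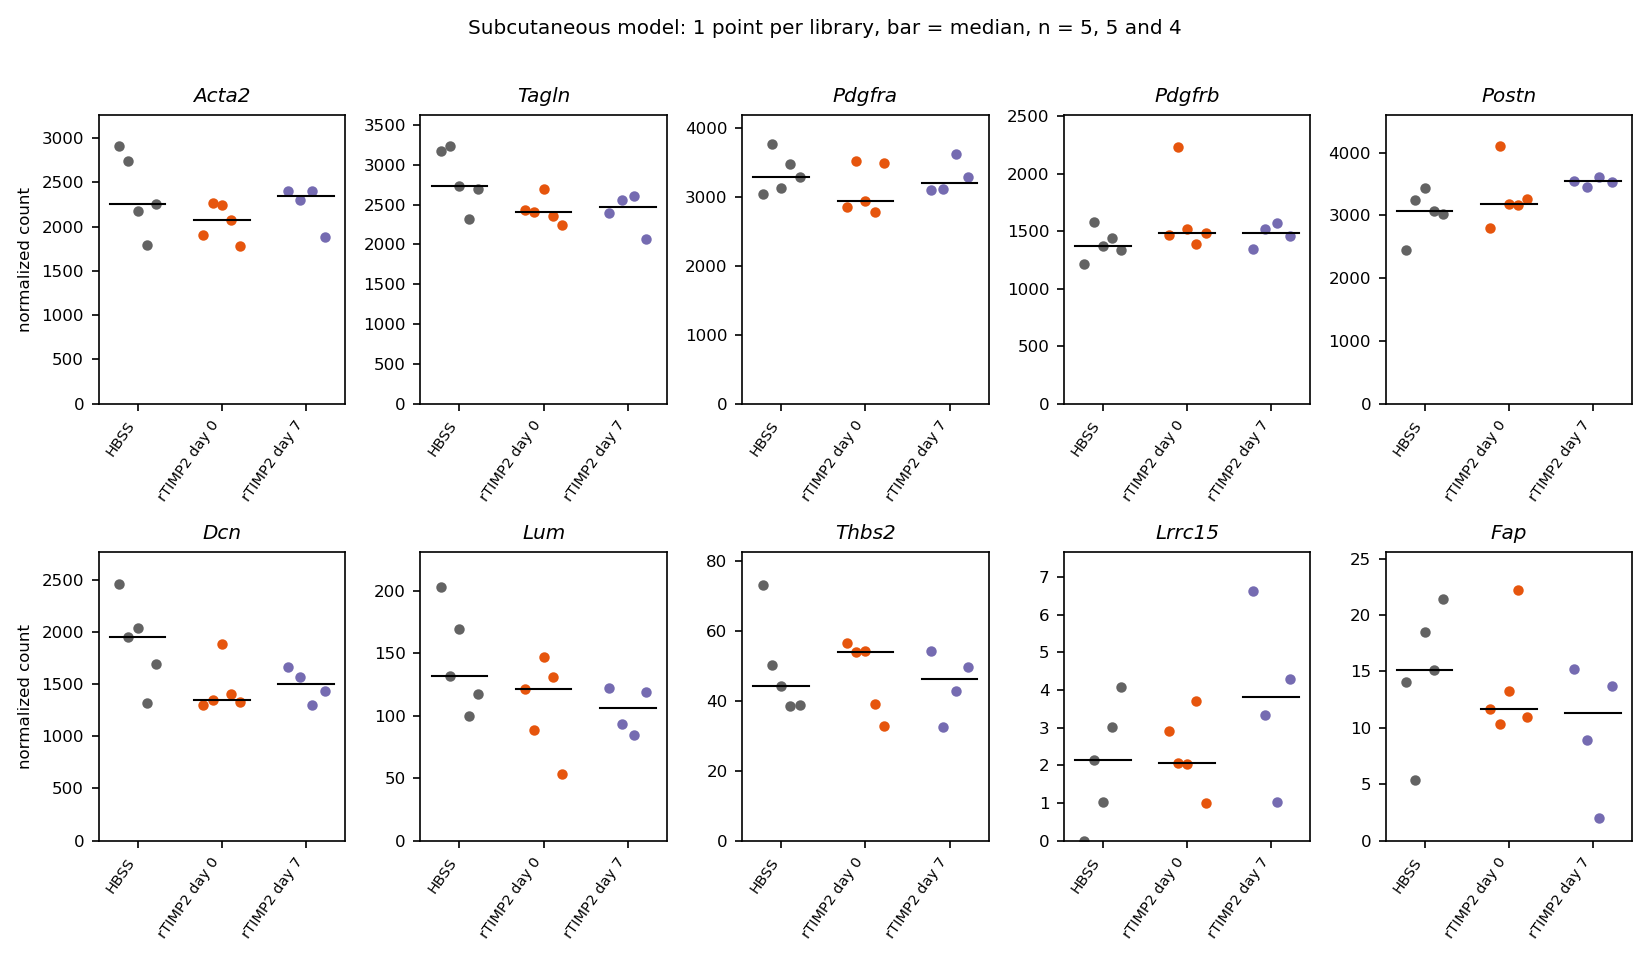
Normalized counts of the 10 genes in the lungs of the subcutaneous model on linear axes that start at 0, with 1 point per library and bars at the median (HBSS and rTIMP2 from day 0, n = 5; rTIMP2 from day 7, n = 4). The groups overlap in every panel except for Postn between HBSS (2451 to 3429.5) and day 7 (3446 to 3617).

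In these lungs 8.1% of all genes were called from day 0 and 10.4% from day 7. The fibroblast lists are too short to show whether their shares differed from these. Of 20 genes of resting fibroblasts, only Meox2, a homeobox gene of mesenchyme, was called, higher from day 0 (319 ± 46.8 against 222 ± 37.5) and from day 7 (333 ± 27.6). Of 8 tested proteoglycans, Aspn was higher from day 7 (323 ± 45.6 against 219 ± 32.2), and of 15 activated fibroblast genes 1 was higher from day 7 and none from day 0. None of the 4 PDGF ligands was called. Within treatment groups, the genes most like Acta2 over 14 libraries were Lmod1 (r = 0.94), Atp5a1 (0.94) and Myh11 (0.93). Lmod1 and Myh11 are on the smooth muscle list, and Atp5a1 is not. Tagln was most like Atp5b (0.93), Acta2 (0.91) and Pam (0.89). Pdgfrb was most like Notch3, a receptor of pericytes (0.96), Agap1 (0.95) and Eif3b (0.92).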

How the data were processed

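Polyadenylated RNA was sequenced from 44 mouse lung samples. The authors deposited normalized counts per gene, treated here as a signal, in 1 table for each tumour model; the submitters' processing notes name Partek, Bowtie2, STAR, DESeq2 and build mm10 without role or version. How the libraries were scaled is not given in the sources used here. Only 78.2% to 84.1% of low values came out as whole reads (tolerance 0.02), so no count test was run, and estimated depths are approximate. The tables were normalized separately and were never compared.

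Samples were grouped by the labels. Values were taken as log2(value + 1), genes with a value of at least 10 in as many libraries as the smaller group holds were kept, and 13 comparisons were fitted with limma 3.58.1 (R 4.3.3, trend and robust empirical Bayes), using only the groups compared. Every adjusted p printed for a fold change is Benjamini-Hochberg adjusted over all genes tested, with calls under 0.05. Lrrc15 was given two-sided exact permutation tests where it missed the filter. The code was tested on simulated data. Levels per kilobase used exon lengths of GENCODE M21 (GRCm38), and promoters came from RefSeq.

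The members and the gene lists were chosen with earlier results of these data known. From each list, called genes with the 2 largest rises and falls and a mean of at least 50 in the higher group could be named, and the 3 genes most like each member. Alternatives were pseudocounts of 0.5 and 10, no filter, 75th percentile and total sum scaling, plain empirical Bayes, all groups in 1 fit, the replicate number as a block, and each replicate left out in turn.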

Additional observations from a re-analysis of the deposited data

Results flagged for a closer look

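Of 90 sets of 1 gene in 1 group of 4 or 5 libraries, 8 held a library whose distance from its nearest neighbour passed Dixon's 95% critical value; chance flags about 1 in 20 such sets. In the intratracheal model, WT rTIMP2 replicate 4 was high in Lum (6408) and Fap (139.6). MT2 rTIMP2 replicate 2 was high in Pdgfrb (1305) and Postn (3135). WT HBSS replicate 1 was high in Tagln (1961). In the subcutaneous model the sets lay in the group treated from day 0: replicate 3 was high in Dcn (1885), replicate 2 in Pdgfrb (2233) and replicate 4 in Fap (22.3).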

How the results depend on the processing

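All 10 members kept their calls and directions for tumour against tumour-free in both genotypes under every alternative run. No member was called for WT against MT2 lungs or for rTIMP2 against HBSS in MT2 lungs under any alternative. For rTIMP2 against HBSS in WT lungs, 6 members were called with all groups in 1 fit and 0 with the replicate block, and 0 to 10 when 1 replicate was left out; Thbs2 lost its call without a filter (adjusted p = 0.054) and with plain empirical Bayes (0.052). The pooled fit also called 1 member, Pdgfra, for treated against tumour-free WT lungs (adjusted p = 0.034), where leaving out replicates gave 0 to 2. From day 7 against HBSS, total sum scaling called 1 member and left-out replicates 0 to 2, and from day 0 left-out replicates gave 0 to 1, as for the genotype by tumour interaction. The call of Fap in treated against tumour-free MT2 lungs was lost with the replicate block (adjusted p = 0.056). Replicate numbers did not pair the libraries: in no comparison did every pair correlate above 0.1. Reads near 0 limit Lrrc15 and Fap in tumour-free lungs. Over all genes, the count called ran over the alternatives and left-out replicates from 861 to 2298 for day 0 (1399 as reported), from 834 to 2149 for day 7 (1805), from 0 to 65 for day 7 against day 0 (41), from 0 to 9584 for rTIMP2 against HBSS in WT lungs (4619), from 5 to 703 for treated against tumour-free WT lungs (35), from 0 to 9 for genotype in tumour-free lungs (4), from 0 to 119 for genotype with HBSS (0), from 0 to 575 for rTIMP2 in MT2 lungs (0) and from 0 to 55 for the genotype by tumour interaction (4).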
